A study of Macaca mulatta with 12 samples.

Results

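The genes described here are the proteasome subunit genes, taken as every gene of the expression table whose symbol is PSM followed by a letter from A to G and a number. The rule found 39 genes among the 16745 listed, and 36 of them passed a filter on low values and could be tested. By role they are 5 genes of the alpha ring and 4 structural, 3 catalytic and 4 inducible genes of the beta rings in the core particle. The regulatory particle adds 7 genes of its base and 7 of its lid, and 5 activators or inhibitors and 4 assembly chaperones complete the set. The rule chose genes by name and used no measured value.

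RNA was sequenced from rhesus macaque cells labelled as cardiomyocytes derived from induced pluripotent stem cells, grown either as a flat monolayer or as EHT, short for engineered heart tissue, in which cells are cast in a gel. Both kinds of culture were kept in RPMI medium with B27 supplement and insulin. The normoxia groups were not put in hypoxia, whereas the hypoxia groups spent 24 h in an anaerobic pouch and a further 24 h after their medium was changed. The labels give no time of RNA extraction and no medium change for normoxia, so that low oxygen, the return to air and fresh medium cannot be told apart. Monolayer normoxia, monolayer hypoxia, EHT normoxia and EHT hypoxia had 3 libraries each. The labels name neither the number of cell lines nor whether the replicates came from separate differentiations, and the p-values therefore measure only the spread between these samples.

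The proteasome is the protease that degrades most short-lived and damaged proteins of the cytosol and nucleus once they carry ubiquitin. Its barrel-shaped core is built of outer alpha rings and inner beta rings, and the beta rings hold the active sites of PSMB5 (chymotrypsin-like), PSMB6 (caspase-like) and PSMB7 (trypsin-like). The regulatory particle caps the barrel: its lid removes ubiquitin and its base, a ring of ATPases on large scaffold proteins, unfolds the substrate. Interferon and immune cells replace the 3 catalytic subunits with PSMB8, PSMB9 and PSMB10, which gives the immunoproteasome and favours peptides for class I antigen presentation. In heart muscle the proteasome turns over sarcomere proteins marked by muscle ubiquitin ligases.

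The 12 libraries held 4154346 to 11298841 reads. Tested proteasome genes had between 6 and 4698 reads in a library, and each had a read in all 12. Values are the deposited log2 values minus the median of the same library over 12084 tested genes, so that 0 is the level of a typical gene in that library. They are not divided by gene length, and levels of different genes are therefore not compared. The libraries went against their cell label in part: the 8 cardiomyocyte markers held 0.0450 to 0.320% of reads in monolayer normoxia, 0.509 to 0.562% in monolayer hypoxia, 0.000906 to 0.0154% in EHT normoxia and 0.00195 to 0.0720% in EHT hypoxia. Fibroblast markers held 3.31 to 7.02% of reads over all libraries. Markers of dividing cells fell from 0.0573 to 0.0757% in monolayer normoxia to 0.00418 to 0.00927% in EHT normoxia, and all 6 were called lower there. Epithelial markers held 0.0865 to 0.472% of reads in monolayer normoxia and at most 0.00730% in the other groups, and 4 of 5 were called lower both in EHT in normoxia and after hypoxia in monolayer (median log2 differences -5.04 and -3.41). Endothelial markers held 0.0185 to 0.0412% in monolayer and 0.00167 to 0.00956% in EHT, with 2 of 4 tested called lower in EHT in normoxia (KDR and TEK) and 1 higher (PECAM1). These shares moved with culture and oxygen, and their part in the differences below was not tested. In bulk RNA, fewer cells of one type and less RNA per cell cannot be told apart.

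As a share of all reads, proteasome transcripts were about equally abundant in EHT and monolayer, and less abundant after hypoxia in both. The 39 genes together held 0.420, 0.392 and 0.407% of reads in monolayer normoxia and 0.397, 0.400 and 0.486% in EHT normoxia. After hypoxia they held 0.228, 0.237 and 0.228% in monolayer and 0.235, 0.217 and 0.240% in EHT. Every hypoxia library lay below every normoxia library, while the cultures overlapped within each oxygen condition. A share of reads also falls when a few other genes take more of the library, and the 10 most abundant genes held 9.29 to 10.7% of reads in monolayer normoxia, 20.2 to 20.6% in monolayer hypoxia, 13.1 to 19.1% in EHT normoxia and 16.8 to 19.1% in EHT hypoxia.

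**Figure D1:**
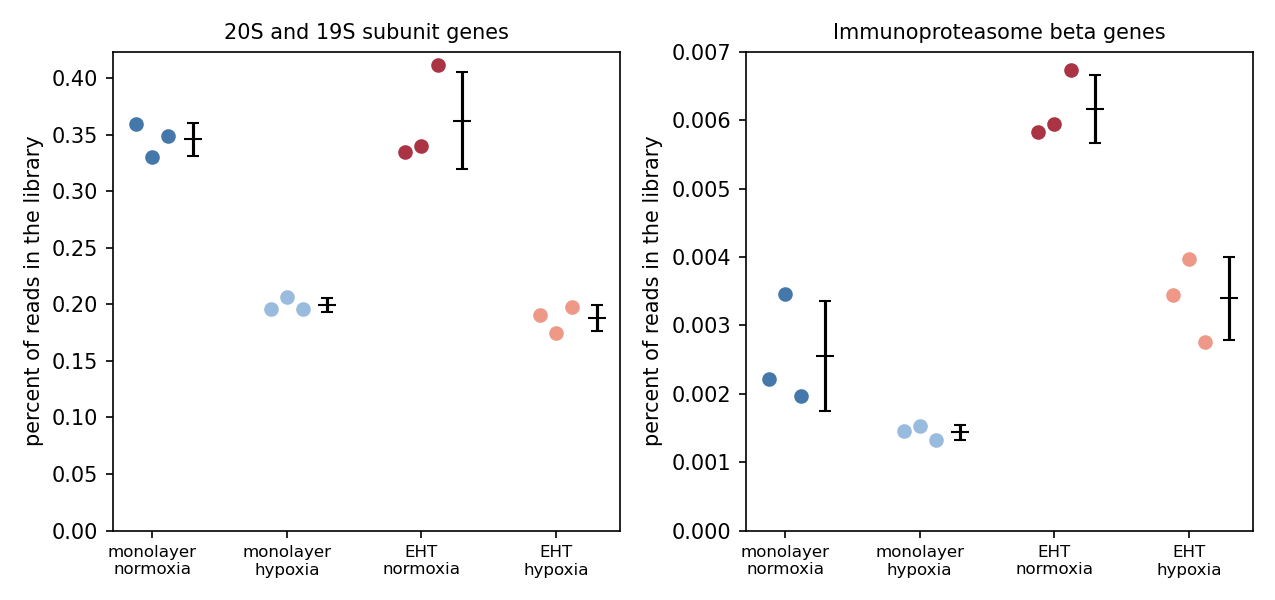
Percent of the reads of each library that fell on the core and regulatory particle genes (left) and on the inducible beta genes (right) in the 4 groups; points are libraries and bars are mean ± SD (n = 3). The core and regulatory genes held 0.346% ± 0.0147 in monolayer normoxia and 0.199% ± 0.00607 in monolayer hypoxia, and the inducible genes were highest in EHT normoxia.

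In normoxia, EHT had higher centred values than monolayer for 19 of the 36 tested genes and lower ones for 0, by limma with Benjamini-Hochberg adjustment at 0.05. Over all genes tested, 22.8% were called higher and 18.5% lower. At an unadjusted p below 0.05 the counts were 24 and 0, and voom on the recovered reads called 17 and 0. The median log2 difference was 0.43 for the proteasome genes and 0.07 for all genes, and 35 of the 36 differences were above 0. The largest belonged to the inducible subunits PSMB8 (1.77), PSMB10 (1.47) and PSMB9 (1.38) and to PSMA7 (1.32). The direction rests on centring, which adds 0.74 to each log2 difference of this comparison: on the deposited values as they stand the median was -0.31 against -0.66 for all genes, and 0 proteasome genes were called. The proteasome median stood 0.35 above that of all genes in both cases, as it must, since centring shifts all genes of a library alike. That gap was 0.17 after quantile normalization, 0.43 on total reads and 0.44 with voom. Without EHT normoxia replicate 1 or replicate 3 the count called higher was 12.

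In hypoxia the same comparison was split: 3 genes were called higher in EHT (PSMB8, PSME1 and PSMA3) and 6 lower (PSMD2, PSMC1, PSMD6, PSMC2, PSMB6 and PSMB4). Over all genes tested, 18.4% were called higher and 19.7% lower. The median log2 difference was 0.06 for the proteasome genes and -0.02 for all genes. PSMB8 was called higher in EHT in both oxygen conditions. PSMB4, PSMB6 and PSMD6 were called higher in EHT in normoxia and lower in EHT in hypoxia, and their normoxia differences change sign on the deposited values. Leaving out monolayer hypoxia replicate 2 or EHT hypoxia replicate 1 brought the 6 lower calls to 2, and leaving out the latter brought the 3 higher calls to 5.

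**Figure D2:**
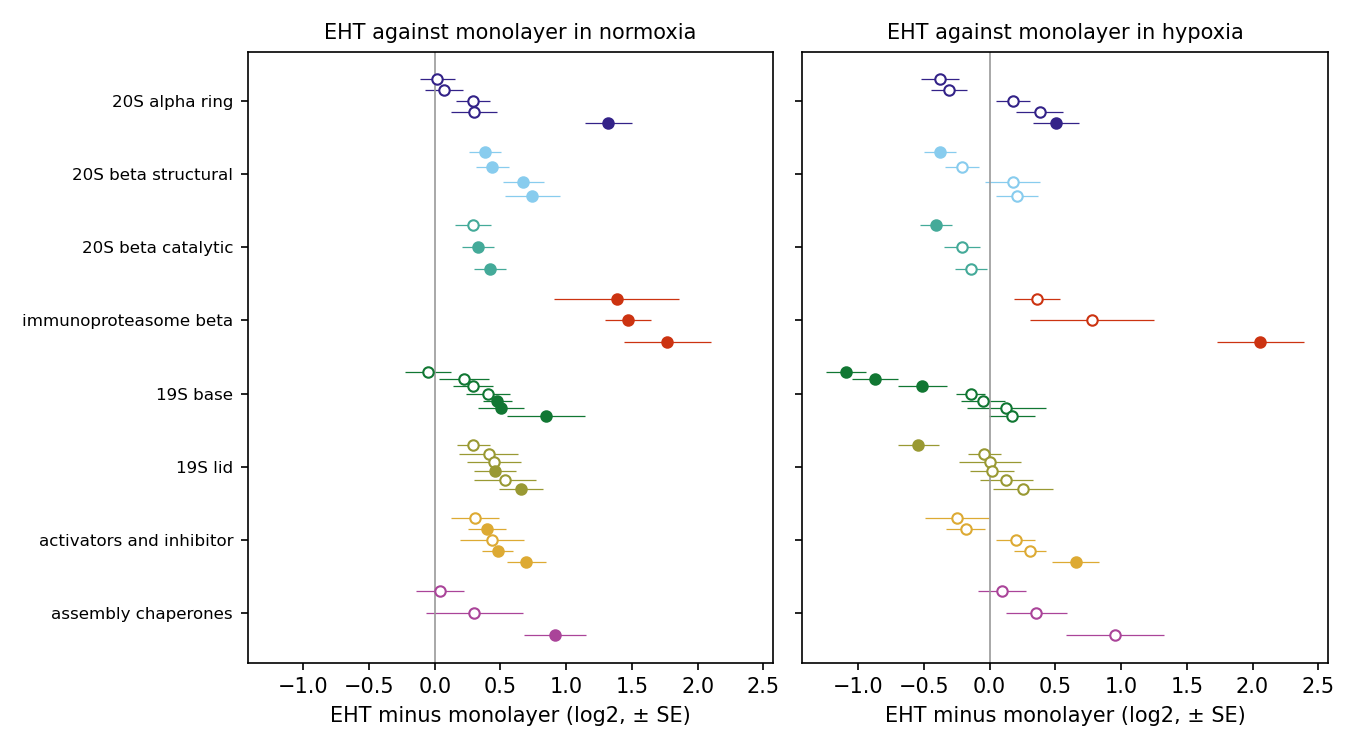
Log2 difference of EHT minus monolayer ± SE for each tested gene, by role, in normoxia (left) and hypoxia (right); filled points were called by limma at an adjusted p below 0.05. In normoxia 35 of 36 points lie above 0 after centring, although the median is -0.31 on the deposited values, and in hypoxia the points lie on both sides.

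Hypoxia in monolayer came with 11 genes called lower and 6 called higher. Among all genes tested, 18.6% were called lower and 27.8% higher. The median log2 difference was -0.19 for the proteasome genes and 0.07 for all genes. The genes with the largest falls were PSMG3 (-1.24), PSMB2 (-1.10), PSME3 (-1.10) and PSMB3 (-0.95), and those with the largest rises were PSMB7 (0.69), PSMF1 (0.67), PSMG1 (0.51) and PSMB5 (0.50). The higher calls depend on the scaling: on the deposited values, which lie 0.55 lower for each gene in this comparison, and after scaling to total reads, 0 genes were called higher, and 6 and 29 were called lower. The median stayed below 0 under each of the 5 other scalings, from -0.29 to -0.95. The 11 lower calls became 6 without monolayer normoxia replicate 1 or monolayer hypoxia replicate 2 and 5 without monolayer hypoxia replicate 1.

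Hypoxia in EHT came with 21 genes called lower and 2 called higher (PSMG1 and PSMF1). Among all genes tested, 16.0% were called lower and 19.5% higher. The median log2 difference was -0.60 for the proteasome genes and 0.03 for all genes, and 32 of the 36 differences were below 0. PSME3 (-1.78), PSMB2 (-1.66), PSMD1 (-1.63) and PSMD2 (-1.45) fell most. The median was -0.45 on the deposited values, where 3 genes were called lower, and -0.93 after scaling to total reads. Without EHT hypoxia replicate 3, a library of 4418409 reads, the median was -0.87 and 23 genes were called lower. Without EHT normoxia replicate 1 or 2, or EHT hypoxia replicate 1 or 2, 1 gene in place of 2 was called higher.

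The 2 hypoxia comparisons share no libraries. In both, 10 genes were called lower (PSMA4, PSMA5, PSMB2, PSMB3, PSMB6, PSMC4, PSMC5, PSMD1, PSME3 and PSME4) and 2 higher (PSMF1 and PSMG1). No gene was called in opposite directions. Joint calls were not counted over all genes tested, so these counts are a description without a share to set them against. The 11 genes called lower in EHT alone were PSMA1, PSMA7, PSMB4, PSMB10, PSMC2, PSMD2, PSMD6, PSMD7, PSMD11, PSME2 and PSMG4, PSMG3 was called lower in monolayer alone, and PSMB1, PSMB5, PSMB7 and PSMD4 were called higher in monolayer alone. These single-culture calls depend on the scaling, since total reads gave 29 lower calls and 0 higher calls in monolayer. Across the 36 genes the log2 differences in monolayer and EHT had a Pearson r of 0.718 and a Spearman rho of 0.658, beside 0.372 and 0.382 across all 12084 genes. Genes are not independent replicates, and each value shares the centring of its libraries.

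**Figure D3:**
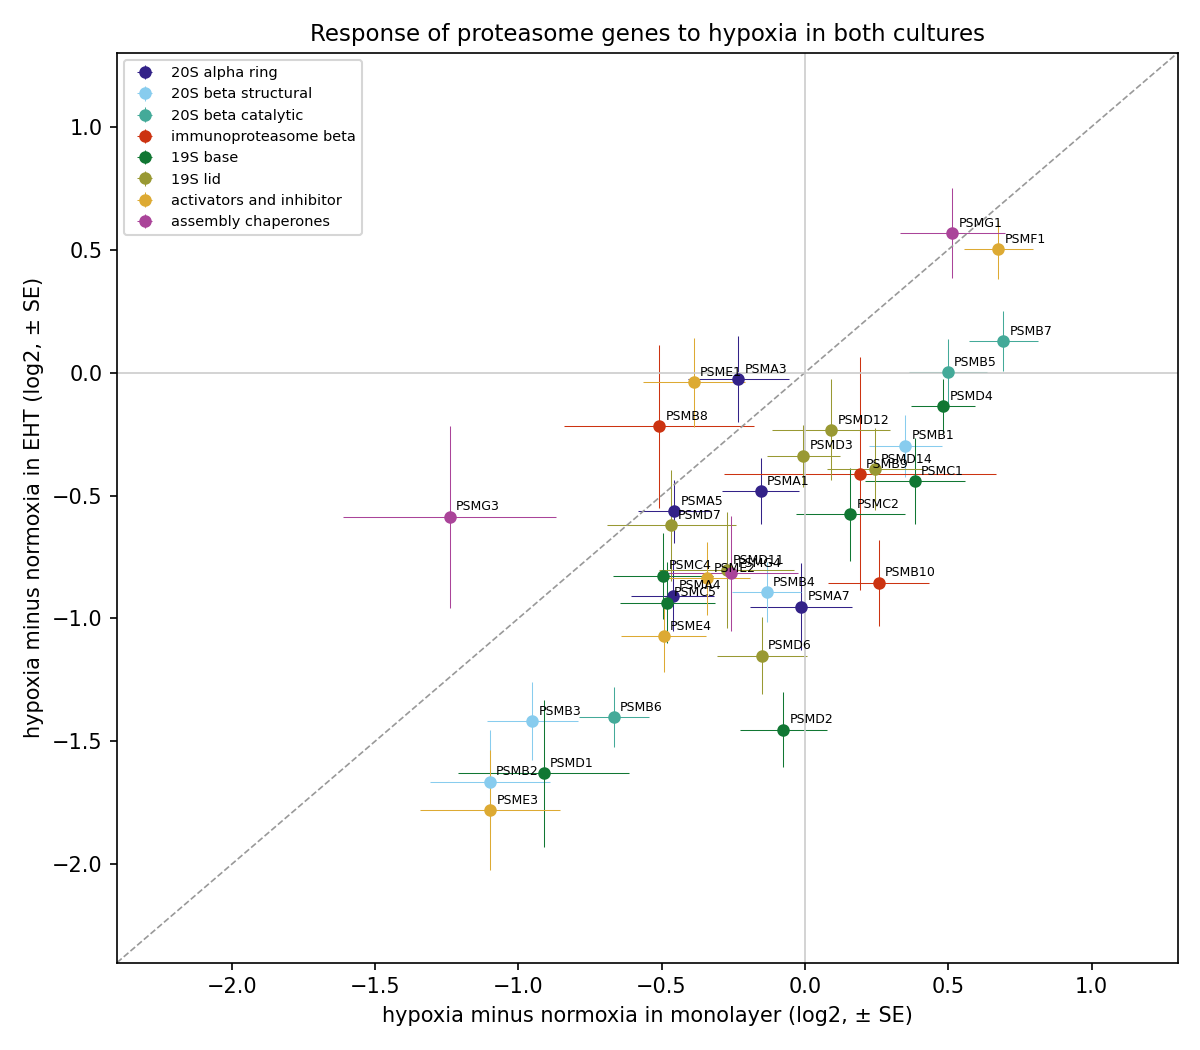
Log2 difference of hypoxia minus normoxia in monolayer (horizontal) and in EHT (vertical) for the 36 tested genes, with SE bars, coloured by role; the dashed line marks equal differences. Most points lie below the line, PSMB2, PSMB3, PSMD1 and PSME3 are low in both cultures, and PSMF1 and PSMG1 are above 0 in both; on total reads the monolayer values of PSMF1 (-0.06) and PSMG1 (-0.22) turn below 0.

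The interaction, the hypoxia difference in EHT minus that in monolayer, was called below 0 for 10 genes and above 0 for 0. Over all genes tested the shares were 14.1% below and 10.3% above. At an unadjusted p below 0.05 the counts were 16 and 0, and voom called 12 and 0. The median was -0.55 for the proteasome genes and -0.08 for all genes. PSMD2 (-1.38), PSMB10 (-1.11) and PSMD6 (-1.001) were the largest of the 10. The deposited values, which lie 0.70 higher for each gene here, gave a median of 0.16 with 0 calls below 0, and scaling to total reads gave 1 call below 0 and 2 above. Leaving out EHT hypoxia replicate 3 raised the calls below 0 to 19, and leaving out monolayer hypoxia replicate 2 lowered them to 6.

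**Figure D4:**
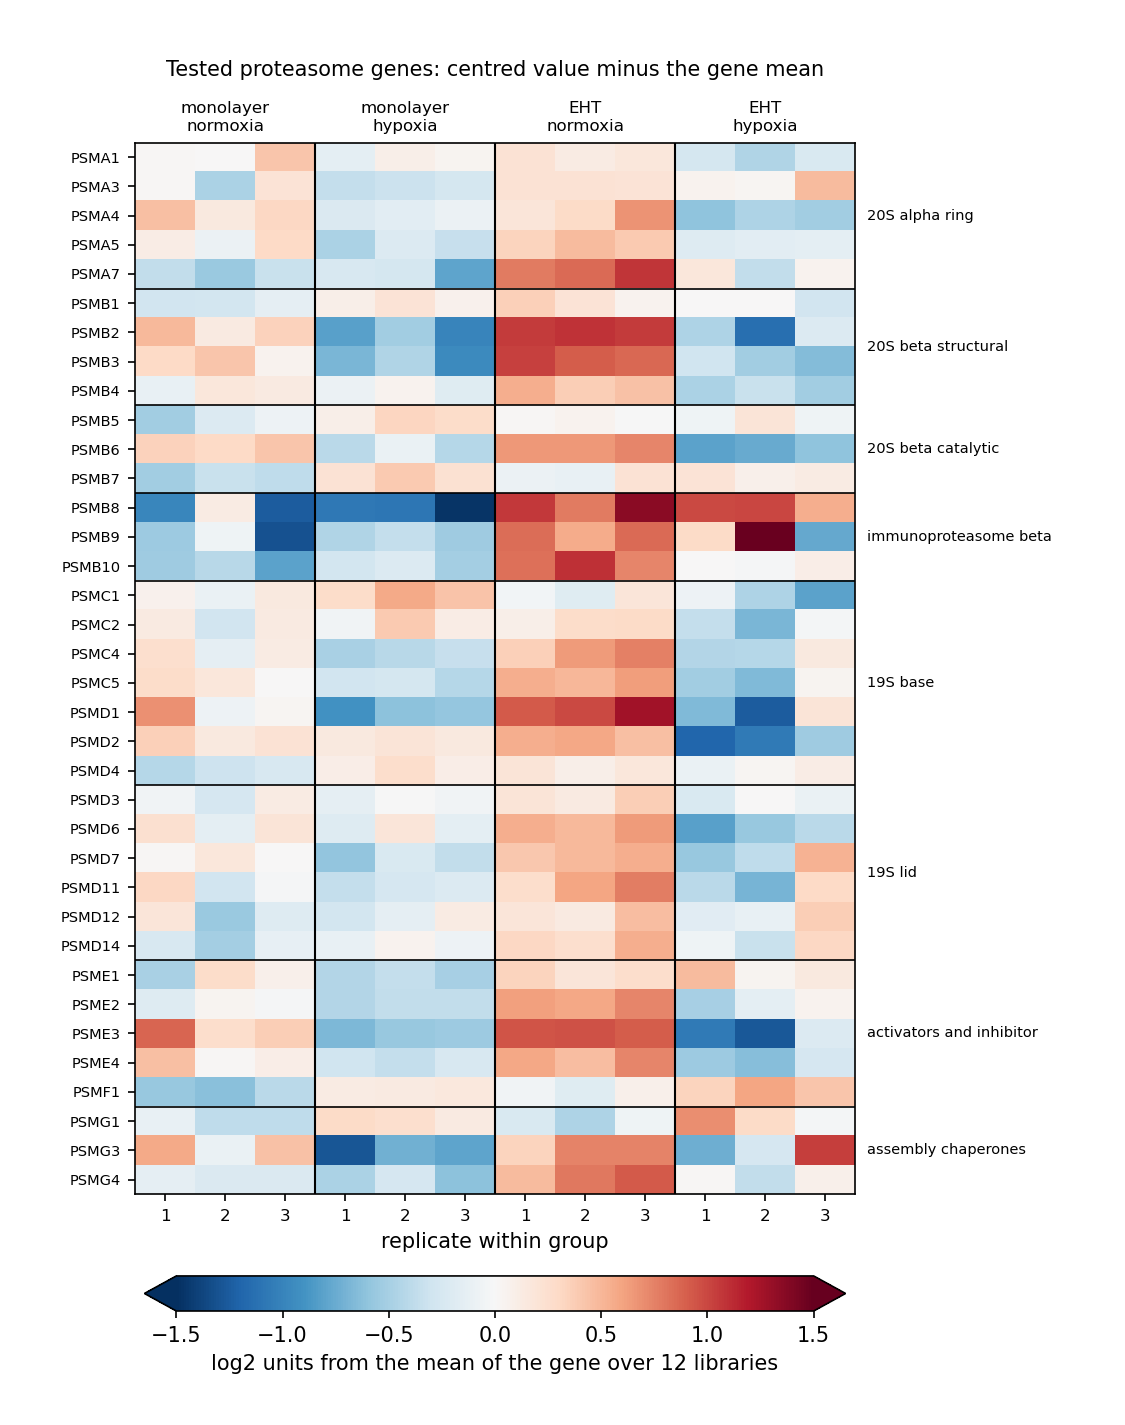
Centred log2 value of each tested gene in each library minus the mean of that gene over the 12 libraries, with genes grouped by role and the colour scale ending at 1.5 in either direction. EHT normoxia is above the gene mean for nearly all genes after centring, and on the deposited values its median difference from monolayer normoxia is -0.31; within EHT hypoxia, replicate 3 is higher than replicates 1 and 2 for PSMD1, PSME3 and PSMG3.

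The inducible beta subunits had the 3 largest differences between cultures in normoxia, and in hypoxia PSMB8 alone of them was called. PSMB8, which takes the place of PSMB5, had centred log2 values of -2.35, -1.24 and -2.62 in monolayer normoxia, -2.44, -2.45 and -2.84 in monolayer hypoxia, -0.30, -0.59 and -0.01 in EHT normoxia and -0.38, -0.36 and -0.82 in EHT hypoxia. All 6 EHT libraries lay above all 6 monolayer libraries, in which PSMB8 had 12 to 127 reads. Its log2 difference was 1.77 ± 0.33 (SE, adjusted p = 0.00114) in normoxia, a 3.40-fold difference, and 2.06 ± 0.33 (adjusted p = 0.000512) in hypoxia, or 4.16-fold. The difference in hypoxia was called under each of 18 alternatives, at 1.93 to 2.84, and that in normoxia under 17 of 18, the exception being the deposited values (1.03, adjusted p = 0.101).

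PSMB10, the replacement of PSMB7, had centred log2 values of -0.81, -0.70 and -1.08 in monolayer normoxia, -0.55, -0.48 and -0.79 in monolayer hypoxia, 0.54, 0.82 and 0.45 in EHT normoxia and -0.28, -0.29 and -0.17 in EHT hypoxia. The EHT normoxia libraries stood above all others. EHT exceeded monolayer by 1.47 ± 0.17 (adjusted p = 4.06e-05) in normoxia, and PSMB10 fell after hypoxia in EHT with a log2 difference of -0.85 ± 0.17 (adjusted p = 0.00237). The interaction was -1.11 ± 0.25 (adjusted p = 0.00662). On the deposited values the culture difference in normoxia was 0.73 and not called, and the interaction was -0.41. In hypoxia the difference between cultures was 0.36 ± 0.17 and not called, and in monolayer the hypoxia difference was 0.26 ± 0.17 and not called.

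PSMB9, the replacement of PSMB6, was the lowest of the tested genes above the filter, with 6 to 71 reads. Its centred log2 values were -2.73, -2.25 and -3.49 in monolayer normoxia, -2.64, -2.54 and -2.71 in monolayer hypoxia, -1.35, -1.63 and -1.33 in EHT normoxia and -1.90, -0.70 and -2.95 in EHT hypoxia. The EHT hypoxia libraries spanned nearly the whole range of the other groups. The normoxia difference of 1.38 ± 0.47 (adjusted p = 0.0328) held under 9 of 17 alternatives and was not called when any one of 5 of its 6 libraries was left out (adjusted p from 0.0575 to 0.127, monolayer normoxia replicate 2 excepted). In hypoxia the difference was 0.78 ± 0.47 and not called, and without EHT hypoxia replicate 3 it was 1.33 (adjusted p = 0.0180).

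The constitutive catalytic genes moved apart from each other. PSMB6 had centred log2 values of 2.38, 2.33 and 2.46 in monolayer normoxia, 1.63, 1.94 and 1.61 in monolayer hypoxia, 2.69, 2.69 and 2.77 in EHT normoxia and 1.24, 1.28 and 1.43 in EHT hypoxia. Both hypoxia groups lay below both normoxia groups. PSMB6 fell after hypoxia, with log2 differences of -0.67 ± 0.12 in monolayer (adjusted p = 0.000692) and -1.40 ± 0.12 in EHT (adjusted p = 5.15e-06) and an interaction of -0.74 ± 0.17 (adjusted p = 0.00834). That interaction was -0.03 on the deposited values and -0.28 on total reads. The culture difference of 0.33 ± 0.12 in normoxia (adjusted p = 0.0458) was called under 3 of 18 alternatives and was -0.41 on the deposited values and -0.04 on total reads, and it was lost without any one of its 6 libraries (0.30 to 0.36).

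PSMB5 and PSMB7 were not called lower in any of the 5 comparisons but the PSMB7 interaction. PSMB5 had centred log2 values of 1.94, 2.26 and 2.39 in monolayer normoxia, 2.56, 2.79 and 2.74 in monolayer hypoxia, 2.48, 2.52 and 2.46 in EHT normoxia and 2.40, 2.66 and 2.40 in EHT hypoxia. PSMB7 had 2.53, 2.72 and 2.67 in monolayer normoxia, 3.27, 3.44 and 3.28 in monolayer hypoxia, 2.97, 2.94 and 3.27 in EHT normoxia and 3.26, 3.13 and 3.18 in EHT hypoxia. For both genes the monolayer hypoxia libraries lay above the monolayer normoxia libraries, and the EHT groups overlapped. After hypoxia in monolayer PSMB5 was higher by 0.50 ± 0.14 (adjusted p = 0.00924) after centring, but its difference was -0.05 on the deposited values and -0.24 on total reads. PSMB7 rose by 0.69 ± 0.12 (adjusted p = 0.000528) after centring, with 0.14 and -0.04 on the same scales. In EHT the hypoxia differences were 0.00 ± 0.14 and 0.13 ± 0.12. The cultures differed for PSMB7 in normoxia by 0.42 ± 0.12 (adjusted p = 0.0143), which was -0.32 before centring and, without EHT normoxia replicate 3, 0.32 and not called.

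**Figure D5:**
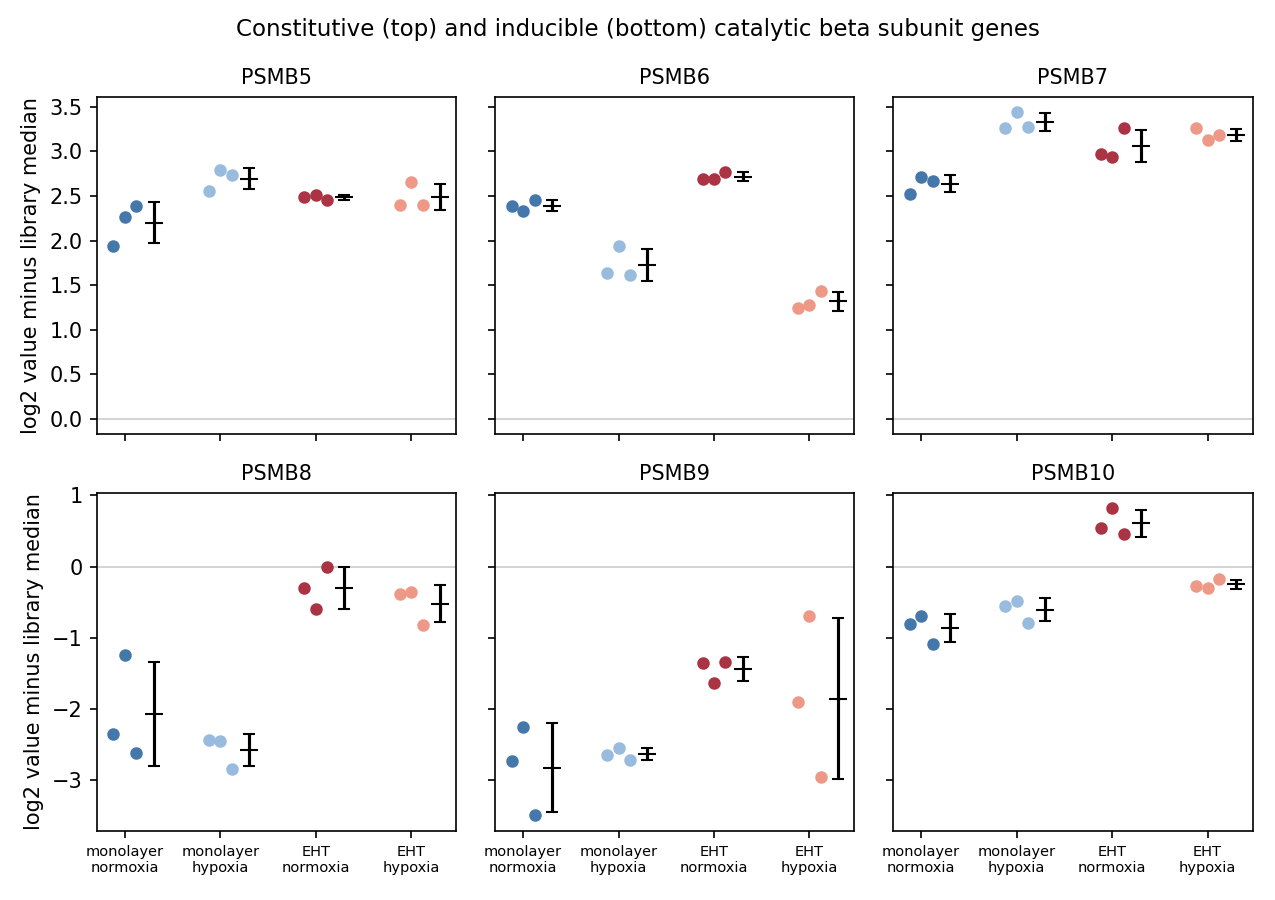
Centred log2 values of the constitutive catalytic genes PSMB5, PSMB6 and PSMB7 (top) and of the inducible PSMB8, PSMB9 and PSMB10 (bottom) in the 4 groups; points are libraries and bars are mean ± SD (n = 3). PSMB6 is lower in both hypoxia groups, PSMB8 is higher in all 6 EHT libraries, and PSMB10 is highest in EHT normoxia.

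Ratios of reads between genes within a library do not depend on any scaling. For each 100 reads of PSMB5 there were 4.28 ± 2.68 reads of PSMB8 in monolayer normoxia (SD, n = 3), 1.34 ± 0.162 in monolayer hypoxia, 13.1 ± 3.35 in EHT normoxia and 11.01 ± 1.62 in EHT hypoxia. The lowest EHT library had 9.57 and the highest monolayer library 7.36. PSMB10 came to 7.87 ± 0.866 reads per 100 of PSMB7 in monolayer normoxia, 5.66 ± 0.344 in monolayer hypoxia, 17.5 ± 4.26 in EHT normoxia and 8.26 ± 0.766 in EHT hypoxia, with EHT normoxia above all other libraries. PSMB9 came to 1.72 ± 0.910 reads per 100 of PSMB6 in monolayer normoxia, 2.45 ± 0.441 in monolayer hypoxia, 4.14 ± 0.775 in EHT normoxia and 10.6 ± 9.98 in EHT hypoxia. That pair did not separate the cultures, because EHT hypoxia replicate 3 had 2.59 and a monolayer library had 2.94. PSMB6 came to 116 ± 18.2 reads per 100 of PSMB5 in monolayer normoxia and 118 ± 6.07 in EHT normoxia, against 50.4 ± 4.88 in monolayer hypoxia and 43.7 ± 6.65 in EHT hypoxia. The lowest normoxia library had 105 and the highest hypoxia library 54.7, so this pair separated by oxygen and not by culture. PSMB7 per 100 of PSMB5 ranged from 122 to 183 over all libraries, with the 4 groups overlapping.

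The structural beta subunits were all called higher in EHT in normoxia, by 0.38 to 0.74, and each of PSMB1, PSMB3 and PSMB4 changes sign on the deposited values. The share called higher there among all genes tested was 22.8%. PSMB2 had centred log2 values of 1.73, 1.38 and 1.59 in monolayer normoxia, 0.43, 0.72 and 0.25 in monolayer hypoxia, 2.30, 2.33 and 2.30 in EHT normoxia and 0.78, 0.12 and 1.04 in EHT hypoxia. PSMB3 had 1.44, 1.56 and 1.19 in monolayer normoxia, 0.46, 0.68 and 0.19 in monolayer hypoxia, 2.16, 2.05 and 2.00 in EHT normoxia and 0.84, 0.62 and 0.49 in EHT hypoxia. In both genes the groups fell in the same order of normoxia above hypoxia without overlap, and EHT above monolayer in normoxia.

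PSMB2 fell after hypoxia in both cultures, with log2 differences of -1.10 ± 0.21 in monolayer (adjusted p = 0.000948) and -1.66 ± 0.21 in EHT (adjusted p = 7.83e-05). The same differences for PSMB3 were -0.95 ± 0.16 (adjusted p = 0.000373) and -1.42 ± 0.16 (adjusted p = 3.46e-05). PSMB1, in contrast, had a hypoxia difference of 0.35 ± 0.13 in monolayer (adjusted p = 0.0366; -0.39 on total reads) and -0.30 ± 0.13 in EHT, not called, and PSMB4 was called lower in EHT alone (-0.89 ± 0.12, adjusted p = 0.000132). For each 100 reads of PSMB1 there were 73.6 ± 9.99 of PSMB2 in monolayer normoxia and 91.1 ± 9.86 in EHT normoxia, against 25.7 ± 2.99 in monolayer hypoxia and 35.9 ± 15.6 in EHT hypoxia. The lowest normoxia library had 65.9 and the highest hypoxia library 52.1. In normoxia EHT exceeded monolayer by 0.74 ± 0.21 for PSMB2 (adjusted p = 0.0129) and by 0.67 ± 0.16 for PSMB3 (adjusted p = 0.00482), which were 0.01 and -0.06 before centring. The PSMB2 value was 0.65 and not called without monolayer normoxia replicate 2.

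Of the 5 alpha ring genes, 1 was called higher in EHT in normoxia, close to the share of 22.8% over all genes tested. After hypoxia in EHT 4 of them were called lower, beside 16.0% of all genes. PSMA7 had centred log2 values of 2.00, 1.82 and 2.05 in monolayer normoxia, 2.14, 2.11 and 1.58 in monolayer hypoxia, 3.16, 3.23 and 3.45 in EHT normoxia and 2.55, 2.00 and 2.43 in EHT hypoxia. EHT normoxia stood above all other libraries, and the other groups overlapped. PSMA7 was higher in EHT than in monolayer in normoxia by 1.32 ± 0.18 (adjusted p = 0.000102), a 2.50-fold difference, and fell after hypoxia in EHT with a difference of -0.95 ± 0.18 (adjusted p = 0.00131). Its hypoxia difference in monolayer was -0.01 ± 0.18, and the interaction was -0.94 ± 0.25 (adjusted p = 0.0171; -0.85 and not called, at 0.0502, without monolayer hypoxia replicate 2). On the deposited values the culture difference of PSMA7 in normoxia was 0.58 and not called, and the interaction was -0.24.

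PSMA3 had centred log2 values of 1.33, 0.84 and 1.52 in monolayer normoxia, 0.96, 0.99 and 1.05 in monolayer hypoxia, 1.53, 1.53 and 1.52 in EHT normoxia and 1.37, 1.34 and 1.79 in EHT hypoxia. It was called higher in EHT in hypoxia by 0.50 ± 0.17 (adjusted p = 0.0374), a call lost without EHT hypoxia replicate 3 (0.36) or any one monolayer hypoxia library (0.48 to 0.53). PSMA4 and PSMA5 fell in both cultures after hypoxia, with differences of -0.46 for both in monolayer and of -0.91 and -0.56 in EHT. PSMA1 was called lower in EHT (-0.48) and not in monolayer.

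Within the base of the regulatory particle, the scaffold proteins PSMD1 and PSMD2, which hold the ATPase ring and its ubiquitin receptors, behaved differently after hypoxia in monolayer. PSMD2 had centred log2 values of 3.65, 3.44 and 3.51 in monolayer normoxia, 3.44, 3.49 and 3.44 in monolayer hypoxia, 3.84, 3.87 and 3.75 in EHT normoxia and 2.11, 2.23 and 2.77 in EHT hypoxia. PSMD1 had 2.65, 1.89 and 1.99 in monolayer normoxia, 1.06, 1.35 and 1.38 in monolayer hypoxia, 2.88, 2.95 and 3.23 in EHT normoxia and 1.30, 0.72 and 2.16 in EHT hypoxia. After centring, PSMD2 was low in EHT hypoxia, and PSMD1 was low in both hypoxia groups.

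PSMD2 fell after hypoxia in EHT with a log2 difference of -1.45 ± 0.15 (adjusted p = 2.21e-05), whereas the difference in monolayer was -0.08 ± 0.15. That monolayer difference was called lower after quantile normalization (-0.74) and on total reads (-0.82). The interaction of -1.38 ± 0.22 (adjusted p = 0.000888) was the largest among the tested proteasome genes, and EHT was lower than monolayer in hypoxia, at -1.09 ± 0.15 (adjusted p = 0.000205). PSMD1 fell with differences of -0.91 ± 0.30 in monolayer (adjusted p = 0.0239) and -1.63 ± 0.30 in EHT (adjusted p = 0.00115). The monolayer call was lost without monolayer normoxia replicate 1 (-0.68) or monolayer hypoxia replicate 1 or 2 (-0.81 and -0.96). In normoxia the culture difference of PSMD1, 0.85 ± 0.30 (adjusted p = 0.0373), held under 7 of 18 alternatives and was lost without any one of its libraries but monolayer normoxia replicate 1 (0.70 to 0.92). For each 100 reads of PSMD1 there were 262 ± 52.8 of PSMD2 in monolayer normoxia, 475 ± 62.2 in monolayer hypoxia, 177 ± 28.7 in EHT normoxia and 210 ± 77.9 in EHT hypoxia.

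The ATPases differed among themselves. PSMC1 had centred log2 values of 2.20, 2.04 and 2.29 in monolayer normoxia, 2.42, 2.71 and 2.57 in monolayer hypoxia, 2.10, 1.97 and 2.33 in EHT normoxia and 2.06, 1.68 and 1.33 in EHT hypoxia. In hypoxia EHT was lower than monolayer without overlap, at -0.87 ± 0.17 (adjusted p = 0.00205), although neither hypoxia difference was called (0.38 ± 0.17 and -0.44 ± 0.17). Its interaction was -0.82 ± 0.25 (adjusted p = 0.0285), and leaving out any one of 6 libraries ended that call (monolayer normoxia replicate 2, monolayer hypoxia replicate 2 or 3, EHT normoxia replicate 1 or 3 or EHT hypoxia replicate 2; -0.73 to -0.84). On the deposited values the interaction was -0.12.

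PSMC2 had 1.13, 0.72 and 1.13 in monolayer normoxia, 0.95, 1.39 and 1.11 in monolayer hypoxia, 1.09, 1.27 and 1.29 in EHT normoxia and 0.64, 0.31 and 0.97 in EHT hypoxia. Its calls lay near the threshold, with -0.58 ± 0.19 after hypoxia in EHT (adjusted p = 0.0311) and -0.51 ± 0.19 for EHT in hypoxia (adjusted p = 0.0488). The first was lost without EHT normoxia replicate 2 or 3 or EHT hypoxia replicate 1 or 2 (-0.41 to -0.58), and the second without monolayer hypoxia replicate 2 or 3 or EHT hypoxia replicate 1 or 2 (-0.35 to -0.53). PSMC4 and PSMC5 fell after hypoxia in both cultures, with differences of -0.50 and -0.48 in monolayer and of -0.83 and -0.94 in EHT. The ubiquitin receptor PSMD4 differed by 0.48 ± 0.11 after hypoxia in monolayer (adjusted p = 0.00328; -0.07 on the deposited values, -0.04 after quantile normalization and -0.26 on total reads) and by -0.14 in EHT.

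After hypoxia the calls for lid genes depended on the scaling in monolayer, and in EHT 3 were called lower, each under 4 of 5 other scalings. Of the 6 tested, 0 were called after hypoxia in monolayer in either direction by limma, 0 had an unadjusted p below 0.05 and voom called 1 lower, whereas in EHT 3 were called lower (PSMD6, PSMD7 and PSMD11). The shares over all genes tested were 27.8% higher and 18.6% lower in monolayer, and 16.0% lower in EHT. PSMD6 had centred log2 values of 1.56, 1.18 and 1.52 in monolayer normoxia, 1.13, 1.50 and 1.18 in monolayer hypoxia, 1.87, 1.81 and 1.96 in EHT normoxia and 0.51, 0.76 and 0.91 in EHT hypoxia. EHT normoxia was the highest group and EHT hypoxia the lowest, with the monolayer groups overlapping between them.

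PSMD6 fell after hypoxia in EHT with a log2 difference of -1.15 ± 0.16 (adjusted p = 0.000148), the monolayer difference was -0.15 ± 0.16 (called lower after quantile normalization, at -0.41, and on total reads, at -0.91), and the interaction was -1.001 ± 0.22 (adjusted p = 0.00668). EHT was lower than monolayer in hypoxia, at -0.54 ± 0.16 (adjusted p = 0.0169), a call lost without monolayer hypoxia replicate 2 (-0.42) or EHT hypoxia replicate 1 (-0.43). PSMD14, the deubiquitinase of the lid, was called higher in EHT in normoxia (0.66 ± 0.17, adjusted p = 0.00750; -0.08 on the deposited values), and its hypoxia differences were not called. PSMD3 and PSMD12 were called in none of the 5 comparisons.

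Among the activators, the nuclear cap PSME3 and the large cap PSME4 fell after hypoxia in both cultures, and the inhibitor PSMF1 rose in both after centring (monolayer value on total reads -0.06). PSME3 had centred log2 values of 1.34, 0.73 and 0.84 in monolayer normoxia, -0.20, -0.10 and -0.08 in monolayer hypoxia, 1.42, 1.42 and 1.37 in EHT normoxia and -0.59, -0.80 and 0.27 in EHT hypoxia. All normoxia libraries lay above all hypoxia libraries. Its differences were -1.10 ± 0.24 in monolayer (adjusted p = 0.00268) and -1.78 ± 0.24 in EHT (adjusted p = 0.000148), that is 2.14-fold and 3.43-fold lower, and they were called under each alternative run, 17 for monolayer and 18 for EHT. PSME4 differed by -0.49 ± 0.15 (adjusted p = 0.0155) and -1.07 ± 0.15 (adjusted p = 0.000156).

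PSMF1 had 1.45, 1.40 and 1.61 in monolayer normoxia, 2.15, 2.15 and 2.18 in monolayer hypoxia, 1.97, 1.84 and 2.09 in EHT normoxia and 2.35, 2.61 and 2.44 in EHT hypoxia. The groups stood in 4 steps without overlap, from monolayer normoxia up to EHT hypoxia. PSMF1 was higher after hypoxia by 0.67 ± 0.12 in monolayer (adjusted p = 0.000593) and by 0.50 ± 0.12 in EHT (adjusted p = 0.00602). In normoxia EHT exceeded monolayer by 0.48 ± 0.12 (adjusted p = 0.00689), which was -0.26 on the deposited values.

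PSME1 and PSME2, which together form the interferon-inducible cap, showed different patterns. PSME1 had centred log2 values of 1.56, 2.32 and 2.12 in monolayer normoxia, 1.60, 1.69 and 1.55 in monolayer hypoxia, 2.39, 2.23 and 2.31 in EHT normoxia and 2.52, 2.09 and 2.19 in EHT hypoxia. It was called higher in EHT in hypoxia, by 0.65 ± 0.18 (adjusted p = 0.0125), and not in normoxia (0.31 ± 0.18). PSME2 was called higher in EHT in normoxia, by 0.70 ± 0.15 (adjusted p = 0.00251; -0.04 before centring), and lower after hypoxia in EHT, at -0.84 ± 0.15 (adjusted p = 0.000889). The interaction was not called for either gene.

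The assembly chaperones, which help to build the proteasome, held genes called in opposite directions after hypoxia in monolayer. PSMG1 had centred log2 values of 0.85, 0.58 and 0.59 in monolayer normoxia, 1.25, 1.22 and 1.10 in monolayer hypoxia, 0.74, 0.50 and 0.90 in EHT normoxia and 1.66, 1.25 and 0.93 in EHT hypoxia. PSMG3 had 0.17, -0.50 and 0.04 in monolayer normoxia, -1.69, -1.13 and -1.19 in monolayer hypoxia, -0.07, 0.34 and 0.35 in EHT normoxia and -1.13, -0.65 and 0.64 in EHT hypoxia. For PSMG1 hypoxia lay above normoxia in each culture, and for PSMG3 it lay below normoxia in monolayer while the EHT groups overlapped.

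After hypoxia PSMG1 rose by 0.51 ± 0.18 in monolayer (adjusted p = 0.0341), with -0.04 before centring and -0.22 on total reads, and by 0.57 ± 0.18 in EHT (adjusted p = 0.0282). The monolayer call was lost without any one of its libraries but monolayer normoxia replicate 1 (0.47 to 0.56), and the EHT call without EHT normoxia replicate 1 or 2 or EHT hypoxia replicate 1 or 2 (0.38 to 0.58). PSMG3 fell in monolayer, at -1.24 ± 0.37 (adjusted p = 0.0154), a call lost without monolayer normoxia replicate 1 (-1.11) or monolayer hypoxia replicate 1 (-1.06). In EHT its difference was -0.59 ± 0.37 and not called, and without EHT hypoxia replicate 3 it was -1.10 (adjusted p = 0.00466). PSMG4 was called higher in EHT in normoxia (0.92 ± 0.23, adjusted p = 0.00774) and lower after hypoxia in EHT (-0.82 ± 0.23, adjusted p = 0.0165).

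The 3 genes under the filter were PSMD8, PSMB11 and PSMD10. PSMD8, a lid subunit, is listed at 0 reads in each of the 12 libraries, whereas the 6 other lid genes had reads in all 12. Whether the counting covered PSMD8 is not known, so the 0 is not read as a lack of expression. PSMB11, the beta subunit of the thymus, had at most 1 read in a library, and PSMD10, a chaperone of the base, had at most 5. Their means lay 0.00, 0.09 and 0.38 log2 units above the lowest value of the table, against a limit of 1, and the lowest genes inside were PSMB9 at 2.28 and PSMG4 at 2.67. Of 48 symbols listed by role, PSMA2, PSMA6, PSMA8, PSMC3, PSMC6, PSMD13, PSMG2, PSMD5 and PSMD9 were not analysed here. In the RefSeq annotation of assembly T2T-MMU8v2.0, used for names and neighbours only, 14 of the 36 tested genes overlap another gene or a pseudogene, among them PSMB9 with the peptide transporter gene TAP1, PSMB10 with CTRL, PSME1 with EMC9, PSMB3 with PIP4K2B and PSMD1 with HTR2B. The sources used here do not say whether counting used strand. Reads of overlapping genes therefore cannot be told apart, nor can reads of near-identical pseudogene copies.

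Factors that bind or build the proteasome but carry other symbols were called higher more often than lower after hypoxia, as were all genes tested (27.8% against 18.6% in monolayer and 19.5% against 16.0% in EHT). Of 9 tested, 6 were called higher in monolayer and 0 lower (0 at an unadjusted p below 0.05 and by voom), although on total reads 5 of the 6 turned below 0, TXNL1 excepted. In EHT 3 were called higher and 1 lower, with no change of sign under any scaling. TXNL1, a thioredoxin bound to the regulatory particle, rose by 0.83 ± 0.13 in monolayer (adjusted p = 0.000231) and by 0.76 ± 0.13 in EHT (adjusted p = 0.000736). The deubiquitinase USP14 rose in monolayer by 0.71 ± 0.16 (adjusted p = 0.00336; -0.02 on total reads) and ADRM1, a ubiquitin receptor, by 0.61 ± 0.15 (adjusted p = 0.00503; -0.12 on total reads). AKIRIN2, which carries proteasomes into the nucleus, rose in EHT by 0.97 ± 0.14 (adjusted p = 0.000271), the deubiquitinase UCHL5 by 0.57 ± 0.15 (adjusted p = 0.0114). In normoxia 3 of the 9 were called higher in EHT and 0 lower (1 at an unadjusted p below 0.05 and 1 by voom). The 3 were the core assembly factor POMP by 0.99 ± 0.13 (adjusted p = 7.75e-05), ADRM1 by 0.80 ± 0.15 (adjusted p = 0.00119) and USP14 by 0.59 ± 0.16 (adjusted p = 0.0116). On the deposited values these differences were 0.26, 0.06 and -0.14. In hypoxia POMP alone was called, at 0.57 ± 0.13 higher in EHT (adjusted p = 0.00457). The interaction was called below 0 for ADRM1 (-0.83 ± 0.21, adjusted p = 0.0133).

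Of 12 genes that control proteasome transcription or deliver substrates, 5 were called higher and 1 lower after hypoxia in monolayer, and 1 higher and 4 lower in EHT, beside the same shares of all genes. On total reads 2 of the 5, NFE2L1 and the shuttle factor RAD23B, turned below 0 in monolayer (-0.16 and -0.08). NGLY1, the enzyme that activates the proteasome transcription factor NFE2L1, rose in monolayer by 1.07 ± 0.16 (adjusted p = 0.000161) and in EHT by 1.16 ± 0.16 (adjusted p = 0.000155). UBQLN1, a shuttle for ubiquitinated proteins, rose in monolayer by 1.16 ± 0.13 (adjusted p = 2.08e-05), with 0.18 ± 0.13 in EHT and an interaction of -0.99 ± 0.19 (adjusted p = 0.00272). The antioxidant regulator NFE2L2 rose in monolayer by 0.81 ± 0.16 (adjusted p = 0.00131). This rise was called under 2 of 5 other scalings, and was 0.26 on the deposited values and 0.07 on total reads. VCP, the unfolding ATPase that hands substrates on, was called lower in both cultures (-1.02 and -0.92), and in EHT its partners UFD1L (-1.25 ± 0.21, adjusted p = 0.000667) and NPLOC4 (-1.16 ± 0.25, adjusted p = 0.00305) were called lower, as was UBQLN4 (-1.02 ± 0.20, adjusted p = 0.00181).

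Between cultures, the normoxia count for these 12 was 3 higher in EHT (NFE2L1 0.89 ± 0.17, NFE2L2 0.79 ± 0.16 and UFD1L 0.87 ± 0.21) and 0 lower, with 1 lower at an unadjusted p below 0.05 and 1 by voom, beside 22.8% and 18.5% of all genes. On the deposited values these 3 differences were 0.16, 0.05 and 0.13. The hypoxia count was 0 higher, also at an unadjusted p below 0.05 and by voom, and 2 lower (UBQLN1 -0.96 ± 0.13 and UBQLN4 -0.70 ± 0.20). Among the genes of ubiquitin and its activating enzymes, the polyubiquitin gene UBB fell after hypoxia in EHT, at -0.68 ± 0.13 (adjusted p = 0.00137), with 0.06 ± 0.13 in monolayer. The activating enzyme UBA1 fell in EHT, at -0.66 ± 0.13 (adjusted p = 0.00186) and UBA6 in monolayer, at -0.86 ± 0.24 (adjusted p = 0.0112).

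The interferon and class I presentation genes, the setting in which the inducible subunits are known to work, were called higher in EHT in normoxia for 8 of 15 and lower for 0 (1 at an unadjusted p below 0.05 and 0 by voom), beside 22.8% higher and 18.5% lower among all genes. B2M, the light chain of class I molecules, was higher by 2.37 ± 0.15 (adjusted p = 5.78e-07) and the interferon-induced GTPase gene GBP1 by 2.64 ± 0.32 (adjusted p = 5.09e-05). In hypoxia 5 were called higher in EHT, among them B2M (1.52 ± 0.15), STAT2 (1.32 ± 0.15) and TAPBP (1.19 ± 0.18), and 1 was called lower, beside 18.4% and 19.7% of all genes. Hypoxia in EHT came with 0 called higher (1 at an unadjusted p below 0.05 and 0 by voom) and 3 lower, among them NLRC5 (-1.99 ± 0.66, adjusted p = 0.0338) and GBP1 (-0.96 ± 0.32, adjusted p = 0.0347), beside 19.5% and 16.0% of all genes. In monolayer 4 were called higher, among them TAP1 (1.01 ± 0.17) and B2M (0.82 ± 0.15), and 2 lower, among them STAT2 (-0.81 ± 0.15), beside 27.8% and 18.6% of all genes. On total reads these rises were 0.29 for TAP1 and 0.09 for B2M.

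Leukocytes carry the inducible subunits without interferon. Their 8 markers held 0.00105 to 0.0491% of reads, 0 of them was called in any of the 5 comparisons by limma, at an unadjusted p below 0.05 or by voom, and in EHT normoxia replicate 3, the library with the highest PSMB8 value, 5 of the 8 had 0 reads. Their share was highest in monolayer normoxia replicate 2, which also had the highest PSMB8 value of the monolayer libraries. In EHT hypoxia replicate 3, 6 of the 8 had 0 reads. Over all genes tested, 10.3 to 27.8% were called per direction and comparison. The leukocyte share differed widely within a group (0.00518, 0.0491 and 0.00562% in monolayer normoxia), so the lack of calls says little. The part of leukocytes in the PSMB8 values was not tested. Of 7 muscle ubiquitin ligases tested, 2 were called higher and 2 lower in EHT in normoxia, beside 22.8% and 18.5% of all genes. In hypoxia 1 was called higher and 3 lower, beside 18.4% and 19.7%. After hypoxia 1 was called higher in monolayer (FBXO32) and 2 in EHT (FBXO32 and CBLB), beside 27.8% and 19.5%. In both cultures 0 were called lower, beside 18.6% and 16.0%, although in EHT 1 was lower at an unadjusted p below 0.05 and 1 by voom. FBXO32, which marks proteins for breakdown in wasting muscle, was higher in EHT in normoxia by 2.88 ± 0.18 (adjusted p = 5.78e-07) and rose after hypoxia by 3.98 ± 0.18 in monolayer (adjusted p = 7.17e-08) and by 1.02 ± 0.18 in EHT (adjusted p = 0.000837). TRIM63, a ligase of the sarcomere, was lower in EHT, with differences of -2.44 ± 0.70 in normoxia (adjusted p = 0.0141) and -2.52 ± 0.70 in hypoxia (adjusted p = 0.0132), as were 7 of the 8 cardiomyocyte markers in both oxygen conditions.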

How the data were processed

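The 12 libraries, 3 in each of 4 groups, were read on an Ion Proton sequencer, per the labels. The authors deposited variance-stabilised log2 values; HISAT2, featureCounts and DESeq2 are named by the submitters' processing notes, while their versions, the annotation and the genome build were not given in the sources used here. The lowest value, 3.00, was shared by genes with 0 reads, and inverting the transformation gave whole reads within 0.01 for 100% of values. Since low values are flattened by this transformation, fold differences of sparsely read genes come out too small before centring. Centring adds its shift to them as well, and can make them too large. PSMD8, with 0 reads in each library, had centred means of -4.93 in monolayer normoxia and -4.19 in EHT normoxia. Library medians ran from 6.98 to 8.75, highest in monolayer normoxia replicate 3, and each library was centred on its median over the genes tested. Genes with a mean less than 1 log2 unit over that floor were left out.

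In limma 3.58.1 (R 4.3.3), each group had its own mean in 1 linear model over the 12 libraries, and variances were moderated toward a trend on the mean level (prior degrees of freedom 4.77). P-values were adjusted by Benjamini-Hochberg over all 12084 genes within each of 5 comparisons, with a threshold of 0.05. An exact test of 3 against 3 libraries cannot go below p = 0.1, and none was used. This procedure was tested on simulated data. Plots were made in matplotlib 3.10.9.

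The proteasome genes and other lists were chosen with earlier results of these data known. Values in each library were printed for the catalytic and inducible beta genes, for up to 4 called genes per direction in each comparison of groups with the largest difference, and for the 3 genes with the smallest interaction p. Of the other lists, mainly the 3 genes with the smallest p were named; genes named beyond that were chosen after their values were seen. A planned description of the most alike genes was not made, because the libraries fall into separate groups. Correlations between deviations of same-numbered libraries ran from -0.06 to 0.33 and were not over 0.1 in every pair, so replicate numbers were not treated as pairs. All table columns were mapped to libraries. Alternatives were other scalings, filters and variance models, voom on the recovered reads, a replicate block and libraries left out; scaling to total reads was chosen after seeing the data. Some genes of these lists are not reported here.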

Additional observations from a re-analysis of the deposited data

Results flagged for a closer look

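For 10 proteasome genes the hypoxia difference in EHT, minus that in monolayer, was called by limma after adjustment over all 12084 genes, and all 10 were below 0 on the log2 scale. In the core these were PSMB10 (-1.11), PSMA7 (-0.94), PSMB4 (-0.76), PSMB6 (-0.74), PSMB1 (-0.65) and PSMB7 (-0.56). In the base they were PSMD2 (-1.38), PSMC1 (-0.82) and PSMD4 (-0.62), and in the lid PSMD6 (-1.001). Of these, PSMD2, PSMD6, PSMB4, PSMB6, PSMB10 and PSMA7 were called lower after hypoxia in EHT, PSMB6 was called lower in both cultures, PSMB1, PSMB7 and PSMD4 were called higher in monolayer alone, and PSMC1 was called in neither. On the deposited values without centring none of the 10 was called, and PSMB1 (0.05), PSMB7 (0.14) and PSMD4 (0.08) turned above 0. PSMB6 (-0.03), PSMB4 (-0.06) and PSMC1 (-0.12) lay near 0 there. The call for PSMB7 was lost without any one of 5 libraries, monolayer normoxia replicate 1, monolayer hypoxia replicate 2 or 3, EHT normoxia replicate 3 or EHT hypoxia replicate 2 (-0.46 to -0.59).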

How the results depend on the processing

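The counts of proteasome genes called depended most on how libraries were scaled. In normoxia the 19 genes called higher in EHT became 0 on the deposited values without centring, 10 after quantile normalization, 3 on total reads and 11 with a filter at 3 log2 units, and total reads gave 1 lower call in place of 0. In hypoxia the 3 genes higher in EHT became 1 without centring and 5 on total reads, with the stricter filter or with array weights, and the 6 lower became 0 without centring and 3 when only the groups compared were fitted. For hypoxia in monolayer the 6 higher calls became 0 without centring, 1 after quantile normalization and 0 on total reads, and the 11 lower calls became 6, 20 and 29, and 5 with no filter. For hypoxia in EHT the 2 higher calls became 0 without centring and on total reads and 1 after quantile normalization, with voom and with only the groups compared, and the 21 lower calls became 3 without centring. The 10 interactions called below 0 became 0 without centring, 5 after quantile normalization, 1 on total reads (which also gave 2 above 0), 19 with array weights and 16 without both EHT libraries numbered 3.

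Among called differences of the genes printed with values in every library, signs turned without centring and on total reads and under no other alternative run. Without centring the median was -0.31 for EHT in normoxia and 0.16 for the interaction. The called genes that turned were PSMB3 (-0.062), PSMB6 (-0.41), PSMB7 (-0.32), PSMD6 (-0.28) and PSMF1 (-0.26) for EHT in normoxia, PSMB5 (-0.051) and PSMG1 (-0.035) for hypoxia in monolayer and PSMB7 (0.14) for the interaction. On total reads they were PSMB6 (-0.044) for EHT in normoxia and PSMB5 (-0.24), PSMB7 (-0.044), PSMF1 (-0.058) and PSMG1 (-0.22) for hypoxia in monolayer, where PSMB10 (-0.51) and PSMC2 (-0.59), not called after centring, were called lower. Differences that were not called also changed sign under other alternatives, such as PSMD1 for EHT in hypoxia, which was -0.26 without EHT hypoxia replicate 3. The cause was not tested.

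With each library left out in turn, the calls for EHT in normoxia were 12 to 17 higher and 0 lower, and in hypoxia 2 to 5 higher and 2 to 6 lower. Those for hypoxia were 4 to 5 higher and 5 to 11 lower in monolayer and 1 to 2 higher and 16 to 23 lower in EHT, and the interaction gave 6 to 19 below 0. Same-numbered libraries share only a number: with the replicate block the counts of higher and lower calls, in the order above, were 18 and 0, 4 and 5, 6 and 11, 2 and 21, and 0 and 11. Genes with few reads, PSMB9 above all, limit what these depths can show.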
